A study of Homo sapiens with 5 samples.

Results

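The inhibitors of the G1 cyclin-dependent kinases (CDKs) and the D-type cyclins were examined in HCT116 colorectal carcinoma cells with and without stable knockdown of the transcription factor ELK4. The family was taken by symbol and has 10 genes of the 20026 listed for each sample. They are the 3 CIP/KIP inhibitors CDKN1A, CDKN1B and CDKN1C, the 4 INK4 inhibitors CDKN2A, CDKN2B, CDKN2C and CDKN2D, and the 3 D cyclins CCND1, CCND2 and CCND3. The family was chosen by the measured fall of CDKN1A, which was among the genes found lower in the knockdown samples in this same contrast. The differences of the members are therefore given as a description, without a p-value.

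D cyclins bind CDK4 and CDK6 in response to growth signals, and the active kinases phosphorylate the retinoblastoma protein, which releases E2F transcription factors and allows entry into S phase. INK4 proteins bind CDK4 and CDK6 and keep them from their cyclins. CIP/KIP proteins bind complexes of cyclin and CDK, hold CDK2 inactive, and at the same time help D cyclins to assemble with CDK4 and CDK6. CDKN1A, which encodes p21, is also induced by DNA damage and during differentiation of the gut epithelium. ELK4 belongs to the ternary complex factors, ETS-domain proteins that bind DNA together with serum response factor.

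The 5 samples were poly(A) RNA-seq libraries of HCT116 cells grown in the same serum-containing medium. The 2 control samples (pLKO.1_1 and pLKO.1_2) carried the lentiviral vector pLKO.1, and the 3 knockdown samples (shELK4_1, shELK4_2 and shELK4_3) were stable knockdown cells made with 3 independent short hairpin RNAs against ELK4. All 5 went through lentiviral transduction and puromycin selection, and no member of the family was altered by design in any of them. Nothing in the labels says that samples came from separate cultures, so the spread between pLKO.1 samples may be technical, and the spread between shELK4 samples includes the difference between hairpins. Loss of ELK4 and any other effect shared by the hairpins cannot be told apart.

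Levels are given as FPKM, fragment counts divided by transcript length and by the mapped reads of the sample, so that genes can be compared with each other. The FPKM of a sample summed to between 309153 and 319885, and between 5074 and 5213 genes were listed at 0. Read counts were not given, so depth is unknown and precision rests on the spread between samples. The standard deviation over genes of the log2 difference between samples was 0.117 for the 2 controls, and 0.310, 0.269 and 0.313 for the 3 pairs of shELK4 samples. Single shELK4 samples therefore differed more from each other than the controls did, which bears on every range below.

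ELK4 itself had 8.62 and 7.60 FPKM in pLKO.1_1 and pLKO.1_2, and 3.14, 2.82 and 2.44 FPKM in shELK4_1, shELK4_2 and shELK4_3. The shELK4 samples kept 38.7%, 34.8% and 30.1% of the pLKO.1 mean. The log2 fold change on log2(FPKM + 1) was −1.26 ± 0.12 (SE), with an adjusted p of 0.029 (limma, Benjamini-Hochberg over 10780 genes tested). Without pLKO.1_1 and without pLKO.1_2 in turn, the adjusted p of ELK4 was 0.483 and 0.342 (limma), without shELK4_1 or shELK4_3 it was 0.0752 and 0.0779, and without an FPKM limit on the genes tested it was 0.114 (limma).

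Of 6 epithelial markers, EPCAM (118 to 166 FPKM), KRT8, KRT18, KRT19 and CDH1 (10.3 to 23.1 FPKM) were present in every sample, and VIL1 was at or near 0 (at most 0.054 FPKM). Among 5 markers of other lineages, PTPRC, PECAM1 and COL1A2 were at or near 0 (at most 0.0186 FPKM), VIM ranged from 0.125 to 1.53 FPKM, and COL1A1 from 3.10 to 4.21 FPKM. The keratins KRT8, KRT18 and KRT19 were lower in all 3 shELK4 samples than in both pLKO.1 samples, and the epithelial markers together summed to 2615 and 2655 FPKM in pLKO.1 and to between 1476 and 1989 FPKM in shELK4. The markers of other lineages summed to 3.34 to 3.65 FPKM in pLKO.1 and 3.73 to 5.24 FPKM in shELK4. Whether these shifts have a part in the differences of the family was not tested.

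The promoters of CDKN1A and CDKN1B, the 2 most abundant inhibitors, which stood on opposite sides of their controls, are shown first. CDKN1A lies on chromosome 6 (GRCh38, 36676460 to 36687337, plus strand) and CDKN1B on chromosome 12 (12685498 to 12722369, plus strand). The 250 bases before the RefSeq start site used are chr6:36678464-36678713 for CDKN1A and chr12:12717118-12717367 for CDKN1B (GRCh38.p14, plus strand, 5′ to 3′). Both windows lie inside the gene bounds given above, and the bases before those bounds were not searched. Capitals mark the GC box core GGGCGG, bound by SP1 family factors, and the ETS core CCGGAA, each searched on both strands, so that the ETS core may read TTCCGG.
CDKN1A: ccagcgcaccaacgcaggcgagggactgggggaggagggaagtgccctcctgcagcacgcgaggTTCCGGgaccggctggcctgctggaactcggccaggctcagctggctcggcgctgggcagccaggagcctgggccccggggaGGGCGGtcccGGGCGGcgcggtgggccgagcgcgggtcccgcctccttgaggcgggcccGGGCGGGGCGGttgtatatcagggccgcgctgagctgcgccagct
CDKN1B: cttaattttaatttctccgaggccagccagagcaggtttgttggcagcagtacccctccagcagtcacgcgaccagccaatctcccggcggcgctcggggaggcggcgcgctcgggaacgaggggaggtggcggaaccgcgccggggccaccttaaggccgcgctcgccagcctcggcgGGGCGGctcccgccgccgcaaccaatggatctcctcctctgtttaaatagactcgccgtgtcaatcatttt
The CDKN1A promoter held 4 GC box cores, with first bases at −104, −94, −45 and −40 from the start site, the last 2 sharing a base. Of 35116 RefSeq promoters of the same length, 42.6% held at least 1 GC box core and 7.63% held as many as CDKN1A. One ETS core stood at −186 of CDKN1A, and 14.5% of all promoters held one. The CDKN1B promoter held 1 GC box core, at −71, and no ETS core. A CArG box, the element of serum response factor, was found in neither sequence, and 1.16% of all promoters held one. Among the other inhibitors, CDKN2B and CDKN2D held 2 GC box cores each, the 2 CDKN2A promoters held 1 and 0, and the 3 CDKN2C promoters 0, 5 and 1, with no ETS core in any. The 3 CCND3 promoters held 0, 2 and 5 GC box cores, and the second of them 1 ETS core at −166. CCND1, CCND2 and CDKN1C were not matched. A match of letters describes the sequence and shows no binding in these cells.

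CDKN1A was by far the most abundant of the inhibitors. Its level was 365 FPKM in pLKO.1_1, 372 in pLKO.1_2, 165 with the first hairpin (shELK4_1), 145 with the second and 147 with the third. All 3 knockdown samples were far below both controls, and the 2 controls nearly coincided. The mean was 369 ± 4.46 FPKM in pLKO.1 (SD, n = 2) and 152 ± 11.0 in shELK4 (SD, n = 3), so that 44.8%, 39.4% and 39.8% of the pLKO.1 mean remained with the individual hairpins. The log2 fold change was −1.27 ± 0.09 (SE), a 2.42-fold lower level on the log2(FPKM + 1) scale. In bulk RNA, fewer cells with CDKN1A transcripts and fewer transcripts per cell cannot be told apart. CDKN1A exons overlap the noncoding RNA gene DINOL on the opposite strand over 4.87% of exonic bases, and the strand handling of the deposited values is not given in the sources used here.

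CDKN1B, which encodes p27, stood on the other side of its controls by a small amount. It had 16.1 and 17.8 FPKM in the pLKO.1 samples and 18.8, 18.7 and 22.2 FPKM in shELK4_1, shELK4_2 and shELK4_3. All 3 knockdown values exceeded both control values, yet the gap between the higher control and the lowest knockdown value was smaller than the gap between the controls. Means were 17.0 ± 1.17 FPKM (SD, n = 2) and 19.9 ± 2.02 FPKM (SD, n = 3), and the log2 fold change was 0.22 ± 0.11 (SE). shELK4_3 alone reached 131% of the pLKO.1 mean, against 111% and 110.5% with the other hairpins.

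CDKN1C, which encodes p57, a largely imprinted gene on chromosome 11 (2883213 to 2885775, minus strand), was low and split between hairpins. Its pLKO.1 values were 3.69 and 2.63 FPKM, and its shELK4 values were 5.48, 1.48 and 5.93 FPKM. shELK4_1 and shELK4_3 were above both controls and shELK4_2 below both, so the groups overlapped. The log2 changes per hairpin were 0.65, −0.74 and 0.75, and the log2 fold change of 0.22 ± 0.44 (SE) was smaller than its error, but became 0.70 ± 0.14 (SE) without shELK4_2.

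**Figure D1:**
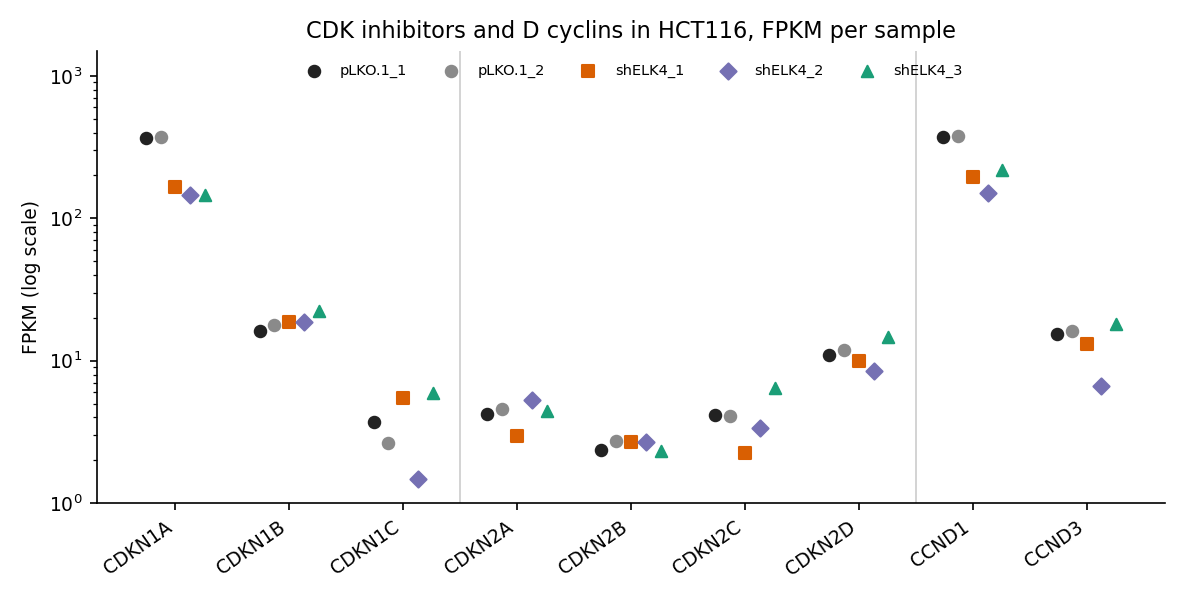
FPKM (y axis, log scale) of 9 members (x axis, CCND2 left out because it was listed at or near 0) in 2 pLKO.1 samples (circles) and 3 shELK4 samples (square, diamond and triangle), 1 point per sample. CDKN1A and CCND1 stand above 100 FPKM in every sample, with the shELK4 points below the pLKO.1 points, while the other members lie below 23 FPKM.

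The INK4 inhibitors were expressed at low levels, between 2.26 and 14.7 FPKM, and none of the 4 separated the groups. CDKN2A, which encodes p16 and, from another reading frame, ARF, had 4.22 and 4.59 FPKM in pLKO.1 and 2.98, 5.26 and 4.43 FPKM in shELK4. The knockdown values fell on both sides of the controls, and the log2 fold change of −0.07 ± 0.19 (SE) was 0.11 ± 0.11 (SE) without shELK4_1 and −0.22 ± 0.16 (SE) without shELK4_2. A gene-level value does not separate p16 from ARF transcripts, and 15.3% of the exonic bases of CDKN2A (chromosome 9, 21967752 to 21995301, minus strand) overlap CDKN2B-AS1 on the opposite strand.

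CDKN2B, which encodes p15, a mediator of growth arrest by TGF-β, varied least. Its FPKM was 2.37 and 2.72 in pLKO.1, and 2.70, 2.69 and 2.33 in shELK4. These 5 values formed a single narrow range, with a log2 fold change of 0.01 ± 0.10 (SE).

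CDKN2C, which encodes p18, had 4.16 and 4.07 FPKM in pLKO.1, against 2.26, 3.39 and 6.48 FPKM in shELK4_1, shELK4_2 and shELK4_3. The controls nearly coincided and the hairpins spread on both sides of them, from 55.0% to 158% of the pLKO.1 mean. CDKN2D, which encodes p19, had 10.9 and 12.0 FPKM in pLKO.1, against 9.99, 8.41 and 14.7 FPKM in shELK4, again with shELK4_3 above and the other hairpins below. The log2 fold changes of −0.11 ± 0.32 (SE) for CDKN2C and −0.08 ± 0.21 (SE) for CDKN2D were both smaller than their errors. Without shELK4_3 they became −0.43 ± 0.16 (SE) and −0.29 ± 0.11 (SE). A noncoding gene on the opposite strand covers 20.4% of the exonic bases of CDKN2C.

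CCND1, which encodes cyclin D1, the D cyclin that growth signals induce in epithelial cells, was as abundant as CDKN1A in control cells. It had 369.9 and 376 FPKM in pLKO.1_1 and pLKO.1_2, and 196, 149.7 and 217 FPKM in shELK4_1, shELK4_2 and shELK4_3. Each knockdown value was far below both controls, and the hairpins differed from each other by more than for CDKN1A. The means were 373 ± 4.47 FPKM (SD, n = 2) and 188 ± 34.4 FPKM (SD, n = 3). CCND1 kept 52.5%, 40.1% and 58.2% of its pLKO.1 mean with the 3 hairpins, and the log2 fold change was −1.01 ± 0.16 (SE), a 2.01-fold lower level. The gene (chromosome 11, 69641156 to 69654474, plus strand) shares 10.4% of its exonic bases with LTO1 on the opposite strand. LTO1, listed under its older name ORAOV1, had a mean of only 7.41 ± 0.838 FPKM in pLKO.1 (SD, n = 2) and 5.64 ± 0.774 FPKM in shELK4 (SD, n = 3), a small level beside that of CCND1.

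CCND3, which encodes cyclin D3, had 15.5 and 16.2 FPKM in pLKO.1 and 13.1, 6.66 and 18.2 FPKM in shELK4. shELK4_2 was at 42.1% of the pLKO.1 mean and shELK4_3 at 115%, so the groups overlapped. The log2 fold change of −0.40 ± 0.35 (SE) was −0.04 ± 0.16 (SE) without shELK4_2 and −0.70 ± 0.29 (SE) without shELK4_3. CCND2, which encodes cyclin D2, was listed at 0 in pLKO.1_2, shELK4_2 and shELK4_3 and at no more than 0.00689 FPKM in the other samples. Only CCND1 and CCND3 were thus measurable among the D cyclins of these cells, and no fold was computed for CCND2.

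Of the 9 members tested, 2 (CDKN1A and CCND1) had all 3 shELK4 samples below both pLKO.1 samples, and 1 (CDKN1B) had all 3 above. Over all 10780 genes tested, 21.0% were below in this way and 19.1% above, and nothing is read from the counts of the members because the family was chosen in the same contrast. The other 6 members overlapped between groups. In pLKO.1 the order of mean levels was CCND1 and CDKN1A, then CDKN1B and CCND3, then CDKN2D, CDKN2A, CDKN2C, CDKN1C and CDKN2B, with CCND2 at the floor. CCND1 and CDKN1A differed in this order by less than the 2 control samples of either gene did, and the ranges of CDKN1B and CCND3 touched in the controls, since the lower value of CDKN1B (16.1 FPKM) lay below the higher value of CCND3 (16.2 FPKM).

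**Figure D2:**
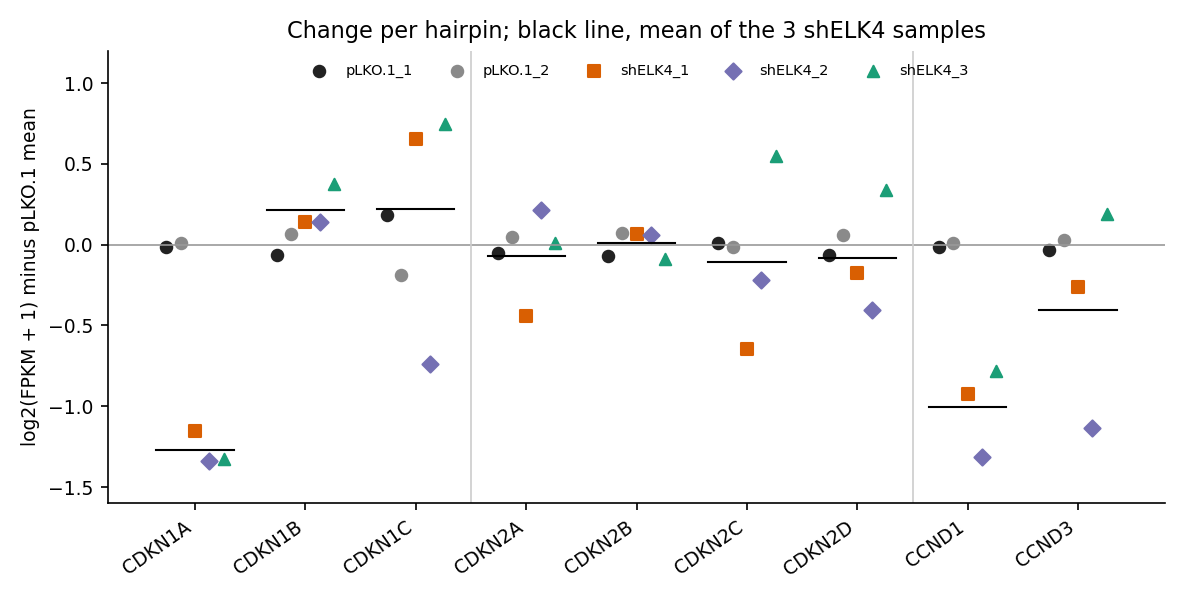
log2(FPKM + 1) of each sample minus the pLKO.1 mean (y axis) for 9 members (x axis), with 1 symbol per sample and a black line at the mean of the 3 shELK4 samples. The 3 shELK4 points of CDKN1A lie between −1.34 and −1.15 and those of CCND1 between −1.31 and −0.78, whereas the points of CDKN1C, CDKN2C, CDKN2D and CCND3 spread on both sides of 0.

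The falls of CDKN1A and CCND1 were also ranked among genes of like abundance, as a description, since the fall of CDKN1A chose the family. There were 476 tested genes with a mean of at least 100 FPKM in pLKO.1, and among them CDKN1A had the most negative log2 fold change and CCND1 the 4th. GPRC5A (−1.16) and KRT18 (−1.10) stood between them, and F2RL1 (−0.92) came next. Over all 10780 genes tested, CDKN1A was the 9th and CCND1 the 30th from the bottom on log2(FPKM + 1). The median log2 fold change of all genes was −0.01. On this scale the falls of low genes are understated, so the ranks do not order genes by proportional fall. ELK4 kept 34.5% of its pLKO.1 mean and CDKN1A 41.3%, yet their log2 fold changes were −1.26 and −1.27. CDKN1A ranked 109th of all genes by FPKM in both controls and 251st, 275th and 281st in the shELK4 samples, and CCND1 moved from 108th and 105th to 191st, 266th and 171st.

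**Figure D3:**
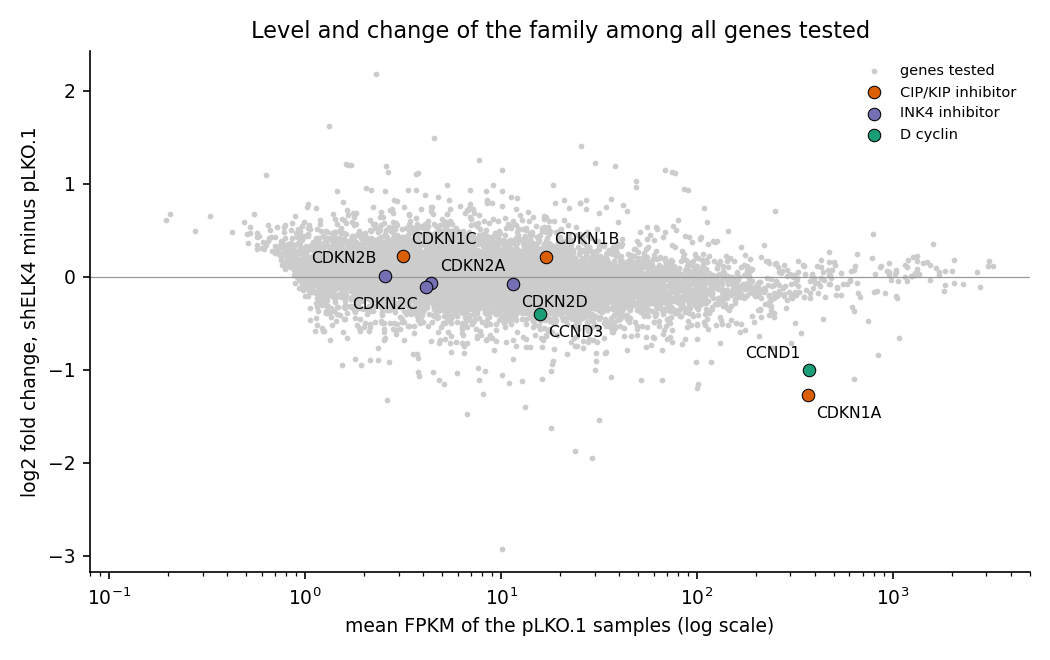
Log2 fold change, shELK4 minus pLKO.1, on log2(FPKM + 1) (y axis) against the mean pLKO.1 FPKM (x axis, log scale) for the 10780 genes tested (grey) and 9 members (coloured by family). CDKN1A (−1.27) and CCND1 (−1.01) lie below nearly all genes of their level, and the remaining members lie within the cloud.

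The balance within the family shifted with these differences. The 7 inhibitors summed to 407 and 415 FPKM in pLKO.1 and to 207, 185 and 203 FPKM in shELK4. The groups did not overlap, but CDKN1A, whose fall chose the family, made up most of this sum, so the separation repeats that fall. Without CDKN1A, the other 6 inhibitors summed to 41.5 and 43.8 FPKM in pLKO.1 and 42.2, 40.0 and 56.1 FPKM in shELK4, and the groups overlapped. CDKN1A thus made up 89.8% and 89.5% of all inhibitor FPKM in the controls, and 79.6%, 78.4% and 72.3% in shELK4_1, shELK4_2 and shELK4_3. The 4 INK4 inhibitors together gave 21.7 and 23.4 FPKM in pLKO.1 and 17.9, 19.7 and 27.9 FPKM in shELK4, without separation of the groups.

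Within each sample, CDKN1A exceeded CDKN1B 22.6 and 20.9 times in pLKO.1 and 8.79, 7.75 and 6.59 times in shELK4. A ratio within a sample does not depend on how the sample was scaled. This one was lower in every knockdown sample, but the fall of CDKN1A chose the family, so the ratio is no separate evidence of it. The D cyclins summed to 385 and 392 FPKM in pLKO.1 and to 209, 156 and 235 FPKM in shELK4, and CCND1 made up between 92.3% and 96.0% of that sum in every sample. CCND1 per CDK4, its main partner kinase, was 5.12 and 4.96 in pLKO.1 and 2.49, 2.40 and 2.63 in shELK4. The groups overlapped for CDK4, so this ratio largely repeats the fall of CCND1. CDK6, the other partner kinase, kept 43.8%, 79.4% and 99.4% of its pLKO.1 mean with the 3 hairpins. CCND1 kept 52.5%, 40.1% and 58.2%. Relative to CDK6, CCND1 was thus lower in shELK4_2 and shELK4_3 but not in shELK4_1. CDKN1A per CCND1 was 0.988 in both controls and 0.842, 0.970 and 0.675 in shELK4, so the 2 transcripts were closest to their control balance in shELK4_2 and furthest from it in shELK4_3.

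**Figure D4:**
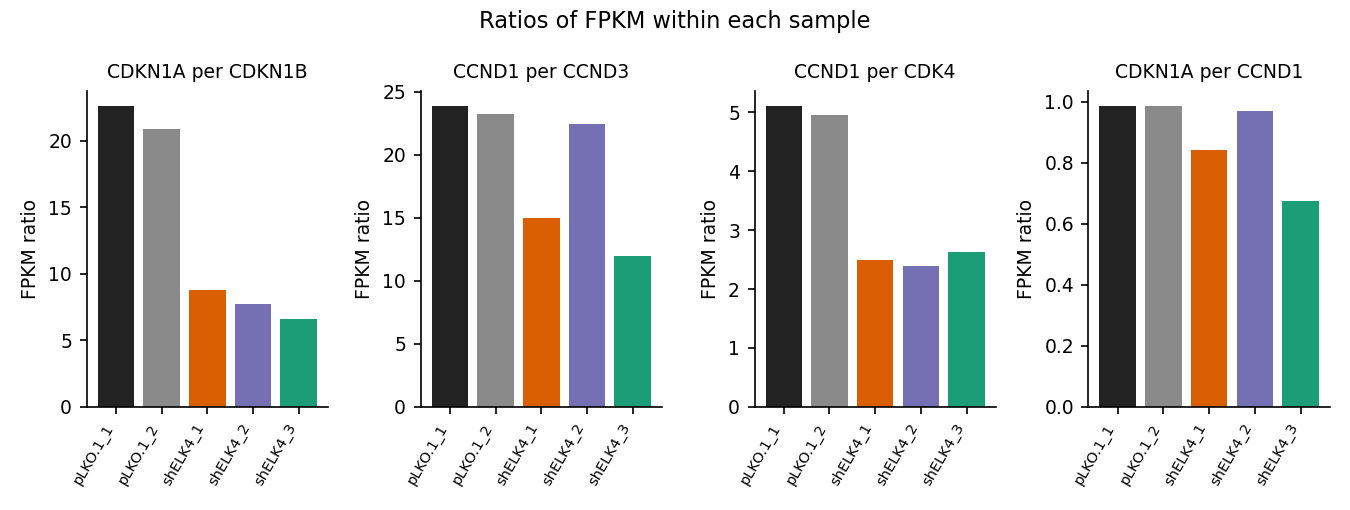
Ratios of FPKM within each sample (y axes, linear from 0) for CDKN1A per CDKN1B, CCND1 per CCND3, CCND1 per CDK4 and CDKN1A per CCND1, 1 bar per sample. CCND1 per CDK4 is 5.12 and 4.96 in pLKO.1 and between 2.40 and 2.63 in shELK4, whereas CCND1 per CCND3 in shELK4_2 (22.5) is close to the controls (23.9 and 23.2).

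Hairpins ranked differently for different members. ELK4 was lowest in shELK4_3 (2.44 FPKM), CDKN1A in shELK4_2, and CCND1, CCND3, CDKN1C and CDKN2D also had their lowest value of all 5 samples in shELK4_2. CDKN2A and CDKN2C were lowest in shELK4_1. CDKN1B, CDKN1C, CDKN2C, CDKN2D and CCND3 had their highest value in shELK4_3, and CDKN1A, CDKN2A, CDKN2B and CCND1 did not. Outside the family, CDK2, CDK4, E2F1 and SKP2 also had their highest value in shELK4_3. CDK6, CCNE1, RB1, MDM2, MYC, SP1 and SP3 did not. The share of all genes with their highest value in shELK4_3 was not computed, so nothing is read from these lists of names. A relation to the level of ELK4 was not tested.

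The genes whose pattern over the 5 samples was most like that of CDKN1A were found by Euclidean distance between log2(FPKM + 1) values centred on the pLKO.1 mean. The nearest was ELK4 itself (distance 0.177), followed by TNNC1 (0.337), TMEM59L (0.372), LRG1 (0.389) and ZNF804A (0.416). The log2 changes of ELK4 with the 3 hairpins were −1.14, −1.25 and −1.40, beside −1.15, −1.34 and −1.32 for CDKN1A. The genes nearest to CCND1 were IFI6 (0.233), ZNF804A (0.252), HOXA3 (0.261), HES2 (0.268) and CLOCK (0.302). CCND1 was the 12th gene from CDKN1A and CDKN1A the 28th from CCND1, at a distance of 0.592. With 5 samples in 2 groups, a small distance mainly reflects a difference between groups of like size on this scale. The pseudocount of 1 shrinks the changes of low genes, so genes at a small distance can differ in proportional fall. ELK4 kept 38.7%, 34.8% and 30.1% of its pLKO.1 mean with the 3 hairpins, against 44.8%, 39.4% and 39.8% for CDKN1A. With a pseudocount of 0.1 the log2 fold changes were −1.51 for ELK4 and −1.28 for CDKN1A.

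The neighbouring genes of CDKN1A and CCND1 that were expressed showed no fall of like size. SRSF3, a splicing factor gene 70.9 kb from CDKN1A, had 115 and 118 FPKM in pLKO.1 and 102, 112 and 120.3 FPKM in shELK4, and RAB44, 10.5 kb away on the other side, was near 0 in every sample. MYEOV, 299.5 kb from CCND1, had a log2 fold change of −0.05 ± 0.18 (SE). FGF19, a growth factor gene 43.8 kb on the other side of CCND1, was higher in all 3 shELK4 samples (8.32, 9.92 and 9.85 FPKM) than in both controls (7.20 and 7.70 FPKM), with an adjusted p of 0.266 (limma). Beside CCND2, which was not expressed, lay TIGAR, a regulator of glycolysis 2.4 kb away, with 9.24 and 8.77 FPKM in pLKO.1 and 5.38, 4.86 and 5.84 FPKM in shELK4 (log2 fold change −0.66, adjusted p 0.0743, limma). At the INK4 locus, MTAP, 30.1 kb from CDKN2A, had 55.0 and 52.0 FPKM in pLKO.1 and 61.4, 46.1 and 56.8 FPKM in shELK4.

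The pathway around the family was read from 6 gene lists. Over all 10780 genes tested, 0.167% had an adjusted p under 0.05 in either direction (limma), 8.08% had an unadjusted p under 0.05 with a higher level in shELK4, and 8.14% had an unadjusted p under 0.05 with a lower level. These shares are the background for the counts that follow, and genes named at an unadjusted p only did not pass the adjusted limit. With either pLKO.1 sample left out, the number of all genes past an unadjusted p of 0.05 dropped from 1749 to 581 (without pLKO.1_1) or 571 (without pLKO.1_2).

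Among the CDKs, the other cyclins and the enzymes that control CDK phosphorylation, 17 of 18 genes were tested, 0 had an adjusted p under 0.05 (limma), and 2 had an unadjusted p under 0.05, both higher in shELK4. CDC25B, a phosphatase that activates CDK1, had 24.7 and 25.8 FPKM in pLKO.1 and 50.4, 40.4 and 43.3 FPKM in shELK4 (log2 fold change 0.80, adjusted p 0.0702, limma). CCNB2, a mitotic cyclin, had a log2 fold change of 0.29. Of the partner kinases of the D cyclins, CDK4 had 72.3 and 75.9 FPKM in pLKO.1 and 78.6, 62.4 and 82.4 FPKM in shELK4 (log2 fold change −0.00), and CDK6 had 22.3 and 20.8 FPKM in pLKO.1 and 9.45, 17.1 and 21.4 FPKM in shELK4 (log2 fold change −0.48 ± 0.30 SE). CDK2 and cyclin E1 (CCNE1), the pair that CDKN1A and CDKN1B inhibit, had log2 fold changes of 0.11 ± 0.18 and −0.42 ± 0.20 (SE), with overlapping groups for both. The median log2 fold change of the list was 0.01, and with either pLKO.1 sample left out 1 gene had an unadjusted p under 0.05.

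Downstream, 19 genes of the RB and E2F proteins and the DREAM complex were tested, 0 passed the adjusted limit (limma) and 1 the unadjusted one. This was MYBL2, an activator of mitotic genes, with 32.3 and 34.5 FPKM in pLKO.1 and 39.3, 41.2 and 46.0 FPKM in shELK4 (log2 fold change 0.33, adjusted p 0.205, limma). RB1, the retinoblastoma protein gene, had a log2 fold change of 0.03 ± 0.12 (SE), and E2F1 of 0.36 ± 0.19 (SE) with all 3 shELK4 samples above both controls. Of 18 E2F target genes that serve DNA replication, 0 had an adjusted p and 0 an unadjusted p under 0.05 (limma), and their log2 fold changes ran from −0.16 to 0.31 with a median of 0.06. Without shELK4_2, 5 genes of the RB and E2F list and 4 of the replication list had an unadjusted p under 0.05, without shELK4_3 these were 3 and 1, without shELK4_1 the RB and E2F list had 2, and with either control left out it had 0.

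Of 29 regulators of CDKN1A transcription, 27 were tested and 1 passed the adjusted limit (limma), while 5 were higher and 1 was lower at an unadjusted p under 0.05. The one was ID1, an inhibitor of basic helix-loop-helix factors and a repressor of CDKN1A in other cells, which rose from 75.9 and 73.8 FPKM in pLKO.1 to 194, 153 and 149.8 FPKM in shELK4 (log2 fold change 1.12 ± 0.13 SE, adjusted p 0.0465, limma). Its adjusted p was 0.0549 with a pseudocount of 0.1 or with median-of-ratios scaling, 0.145 without an FPKM limit, 0.621 and 0.579 without pLKO.1_1 and pLKO.1_2, and 0.0752 and 0.0779 without shELK4_1 and shELK4_3 (limma). MDM2, a ubiquitin ligase, had 32.8 and 30.1 FPKM in pLKO.1 and 37.6, 40.4 and 38.5 FPKM in shELK4 (log2 fold change 0.30, adjusted p 0.195, limma). SP1 and SP3, which bind GC boxes such as those printed above, had log2 fold changes of 0.16 ± 0.10 and 0.12 ± 0.10 (SE), and MYC, a repressor of CDKN1A, 0.09 ± 0.17 (SE). KLF4 (0.76), MDM4 (0.28), BRCA1 (0.24) and SMAD3 (−0.33) were the other genes with an unadjusted p under 0.05, and are named here after their values were seen. The median of the list was 0.09, and the count of 6 became 2 with either pLKO.1 sample left out and 10 without shELK4_2.

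The regulators of D cyclin transcription held 20 tested genes of 22, with 0 past the adjusted limit (limma) and 2 past the unadjusted one, both higher. JUND, an AP-1 subunit, had 48.4 and 49.6 FPKM in pLKO.1 and 103, 121 and 81.9 FPKM in shELK4 (log2 fold change 1.02, adjusted p 0.0743, limma). TCF7L2, the main partner of β-catenin in the colon, had a log2 fold change of 0.36 (adjusted p 0.218, limma). Of the 20 genes, 6 had all 3 shELK4 samples above both controls and 2 had all 3 below, against 19.1% and 21.0% of all genes tested. The 2 below were JUN, another AP-1 subunit, and ETS1, with log2 fold changes of −0.75, the lowest of the list, and −0.63. Neither passed the unadjusted limit, and both are named here after their values were seen. The median was 0.08, and 6 genes had an unadjusted p under 0.05 without shELK4_2 and 1 with either control left out. Of 17 genes for turnover of the inhibitor and cyclin proteins, 16 were tested, 0 passed the adjusted limit (limma), and 2 were lower at an unadjusted p under 0.05. These were DDB1 (−0.31) and SKP1 (−0.37), adaptors of 2 cullin ubiquitin ligases that act on p21 and p27, while SKP2, the F-box protein that recognises p27, had 8.02 and 8.28 FPKM in pLKO.1 and 9.45, 8.82 and 13.2 FPKM in shELK4 (log2 fold change 0.31, adjusted p 0.404, limma). The median of the turnover list was −0.09, and 7 of its genes had an unadjusted p under 0.05 without shELK4_2 and 0 with either control left out.

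**Figure D5:**
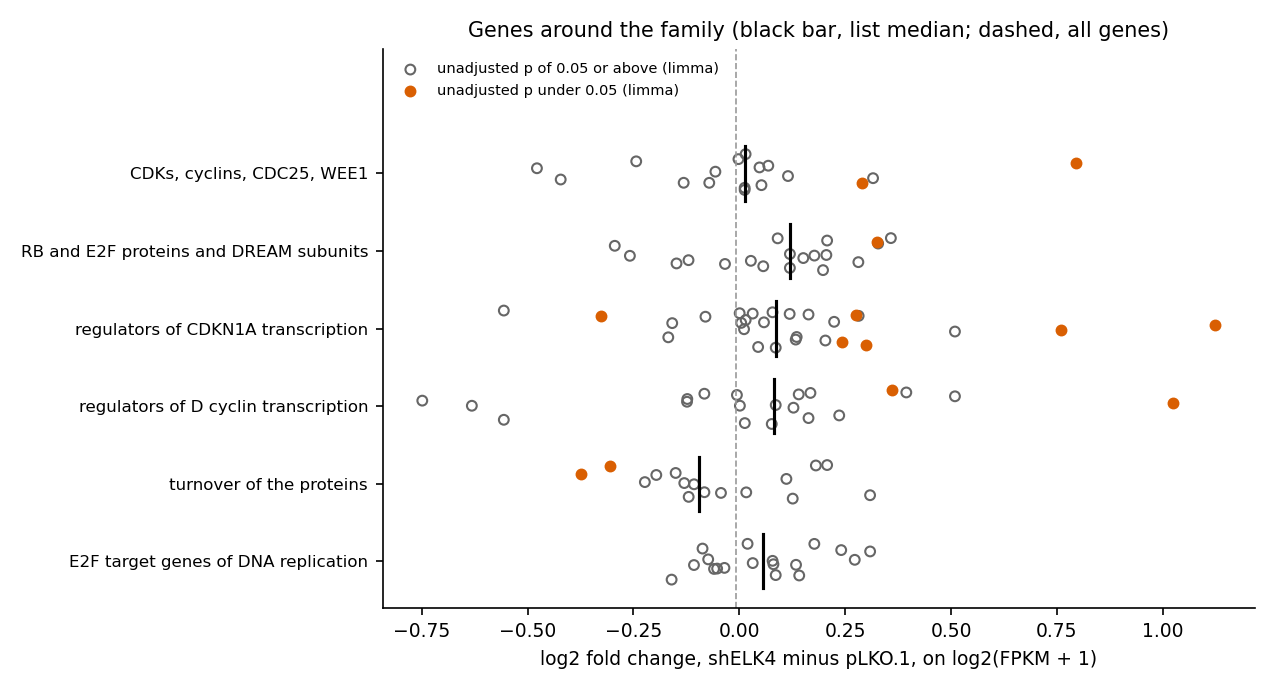
Log2 fold change, shELK4 minus pLKO.1, on log2(FPKM + 1) (x axis) of the tested genes in 6 lists around the family (y axis, points spread vertically for legibility), with a black bar at each list's median and a dashed line at the median of all genes. Filled points have an unadjusted p under 0.05 (limma), and the list medians lie between −0.09 (turnover) and 0.12 (RB and E2F).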

How the data were processed

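Poly(A) RNA-seq of 5 HCT116 samples was analysed, 2 pLKO.1 and 3 shELK4, grouped by their labels. The authors sequenced on an Illumina HiSeq and deposited FPKM values per gene from Cufflinks, scaled to total mapped reads. The submitters' processing notes name Trimmomatic 0.36, HISAT2 2.0.5, Cufflinks 2.2.1 and HTSeq 0.9.1. The genome build, annotation and strand setting are not given in the sources used here, so genes with overlapping exons are uncertain. FPKM holds no read counts, so depth is unknown.

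Each file listed 20030 entries, and 4 were dropped for repeated names. Values were tested as log2(FPKM + 1) with limma 3.58.1 (R 4.3.3, empirical Bayes with a trend, condition as the only term) over the 10780 genes that reached 1 FPKM in 2 or more samples, with Benjamini-Hochberg adjustment and a limit of 0.05. The pseudocount of 1 understates changes of low genes. The step was tested on simulated data. These had independent noise of the same spread for every gene of a group, so they do not show how the fit behaves with gene-specific spread. The members and the gene lists were chosen with earlier results of these data known, and MYC, SP1, EGR1 and STAT3 sit in 2 lists each. Results that need an item withheld for evaluation are not reported here. Named were the members, ELK4, from each list every gene past the adjusted limit or else up to 3 genes with the lowest unadjusted p under 0.05, a fixed set (CDK4, CDK6, CDK2, CCNE1, RB1, E2F1, MDM2, MYC, SP1, SP3 and SKP2), the 5 genes most like CDKN1A and CCND1, and chromosomal neighbours. Gene positions and overlaps are from GENCODE 44 (GRCh38), and promoter sequences and their motif counts from RefSeq (GRCh38.p14), where 7 of the 10 members were matched. Alternatives were a pseudocount of 0.1, no FPKM limit, a replicate block, median-of-ratios scaling, quantile normalization and each sample left out.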

Additional observations from a re-analysis of the deposited data

How the results depend on the processing

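CDKN1A, CCND1, CDKN1B and CCND3 kept the sign of their log2 fold change under all 10 alternatives, with ranges of −1.33 to −1.21, −1.12 to −0.85, 0.14 to 0.28 and −0.70 to −0.04. CDKN1C (−0.04 to 0.70), CDKN2A (−0.22 to 0.11), CDKN2B (−0.06 to 0.08), CDKN2C (−0.43 to 0.16) and CDKN2D (−0.29 to 0.08) changed sign under at least 1. The replicate block gave every member the same log2 fold change as leaving out shELK4_3, so it is not a separate alternative for them. The number of genes past an adjusted p of 0.05, 18 as reported, was 0 without an FPKM limit, and 0 to 95 with 1 sample left out (0 without pLKO.1_1, pLKO.1_2 or shELK4_1, 1 without shELK4_3, 95 without shELK4_2). At an unadjusted p it was 571 to 2441 with 1 sample left out. Counts of list genes past an unadjusted p with 1 sample left out ran from 1 to 3 (CDKs and other cyclins), 0 to 5 (RB and E2F), 2 to 10 (CDKN1A regulators), 1 to 6 (D cyclin regulators), 0 to 7 (turnover) and 0 to 4 (E2F targets). Median-of-ratios scaling gave 2 for RB and E2F, and quantile normalization gave 3 for RB and E2F, 1 for turnover and 4 for E2F targets. The cause of these shifts was not tested, beyond the smaller number of samples when 1 is left out, where a lone pLKO.1 sample is assumed to vary like the shELK4 samples. The replicate numbers of shELK4 stand for hairpins that the pLKO.1 samples do not carry, so the 2 groups share only the numbers: deviations from the group means correlated by 0.078 (number 1) and 0.023 (number 2) over genes. With a replicate block the lists gave 2 (RB and E2F), 3 (CDKN1A regulators), 5 (D cyclin regulators), 1 (turnover) and 1 (E2F targets).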
